A study of Gallus gallus with 6 samples.

Results

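The genes described here were the solute carriers, ion channels and ion pumps of the hen uterus, the shell gland of the oviduct. They were picked by name from the deposited table of differentially expressed genes (DEGs): a gene was kept if its symbol began with SLC, KCN, SCN, CACN, CLCN, CLIC, CLCA, ANO, TRP, CNG, HCN, ASIC, AQP, ABC, BEST, CFTR, ATP6 or ATP13, or was CA followed by digits. The rule found 32 genes among the 516 named genes of that table, which holds 616 genes, and among the 19152 genes of the count table. They were 15 solute carriers (SLC), 6 potassium channel genes (KCN), 3 sodium channel genes (SCN) and 1 gene from each of 8 other families, and 8 of the 19 families of the rule had no gene in the table. The table names only genes that the authors called between these same libraries, so a transport gene they did not call could not be found by name here. Each difference between the groups below is therefore a description of genes already chosen for differing, and none of the calls below is independent evidence of a difference.

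RNA was sequenced from the uterus of Hy-Line hens, a commercial egg-laying strain, with 1 library per hen. The 3 layers were 35 weeks old and in lay, and their tissue was taken 15 to 20 h after ovulation, when the egg was in the uterus and its shell was being calcified. The 3 non-layers were 35 to 60 weeks old and had no growing follicles in the ovary. All 6 uteri were snap frozen, and no hen received a treatment that the labels or methods name. The age of each non-layer was not given, so age and laying status cannot be told apart. Layers held an egg and non-layers did not, so the comparison is between calcifying and non-laying hens, not between stages of a laying cycle.

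The chicken shell is built from calcium carbonate in the uterine fluid, and the gland keeps no store of either ion: calcium crosses the uterine epithelium from the blood, and bicarbonate is formed largely from carbon dioxide. Epithelia of this kind move ions by pumps that use ATP, by carriers that couple one solute to the gradient of another, and by channels that let one kind of ion pass along its gradient. Carbonic anhydrases supply bicarbonate and protons from carbon dioxide and water, and proton pumps and sodium-proton exchangers move the protons across membranes.

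Levels are given as CPM, a gene's reads scaled to a common library size after a TMM composition factor, which corrects for a few very abundant genes. Fold changes and adjusted p-values come from edgeR's quasi-likelihood test with Benjamini-Hochberg adjustment over all 13317 genes tested. The standard error (SE) of a fold change was derived as its absolute log2 value divided by the square root of the test's F statistic. A gene is called where its adjusted p was under 0.05 and its change at least 2-fold. Libraries held 14756666 to 20333103 gene counts, and the 32 genes took 0.474 to 0.587% of them in layers and 0.175 to 0.265% in non-layers. TMM factors were 0.859 to 0.934 in layers and 1.09 to 1.18 in non-layers. In bulk tissue, fewer cells of a type and less RNA per cell cannot be told apart.

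In layers, 17 of the 32 genes were higher and 15 were lower than in non-layers. The higher genes were mostly abundant, led in level by the urea carrier SLC14A1, the sodium-proton exchanger SLC9A2 and the fatty acid transport protein SLC27A6. The lower genes were mostly expressed at a few CPM or less, with the cotransporter SLC12A2 as the abundant exception. edgeR called 8 of the 17 higher genes (SLC5A9, KCNJ2, CLCN2, CFTR, SLC9A2, SLC39A13, ATP6V0D2 and SLC20A1) and 3 of the 15 lower genes (SLC12A2, KCNIP4 and KCNT2). Of all genes tested, 1.87% were called in either direction, 0.901% as higher and 0.969% as lower in layers, and nothing is read from the difference because the rule used this contrast. The 3 layers lay entirely above or below the 3 non-layers for 30 of the 32 genes, against 27.2% of all genes tested, 12.1% with layers above and 15.1% with layers below. The exceptions were SLC16A6 and ABCG4. All 32 genes passed the low-count filter, as did 13317 of the 19152 genes of the count table. All 32 had an unadjusted edgeR p under 0.05, against 2702 of the 13317 genes tested, and the choice of the genes by this contrast favours that.

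The median log2 fold change was 1.59 over the 17 higher genes and −2.25 over the 15 lower genes. Over all genes tested, it was 0.31 for those above 0 and −0.32 for those below 0. The other genes of the deposited table, chosen by the same contrast, had medians of 1.78 for the 257 that were higher and −2.04 for the 323 that were lower. The calls lay close to the threshold: SLC9A2 and CLCN2 fell just inside it, with edgeR adjusted p-values of 0.047 and 0.045, and SLC4A9 and SCN2A fell just outside it, both at 0.051. Over the 8 called higher genes the edgeR adjusted p ran from 0.033 to 0.047, and over the 9 uncalled ones from 0.053 to 0.16. With DESeq2's Wald test on the same counts, which calls 6.73% of genes given an adjusted p, all 32 were called, as the choice of the genes from such calls fixes. Leaving out 1 hen at a time changed which genes were called, from 0 to 9 of the 32 and from 0 to 274 of all genes. It changed the direction of none of the 32, which the choice of the genes by this contrast favours.

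**Figure D1:**
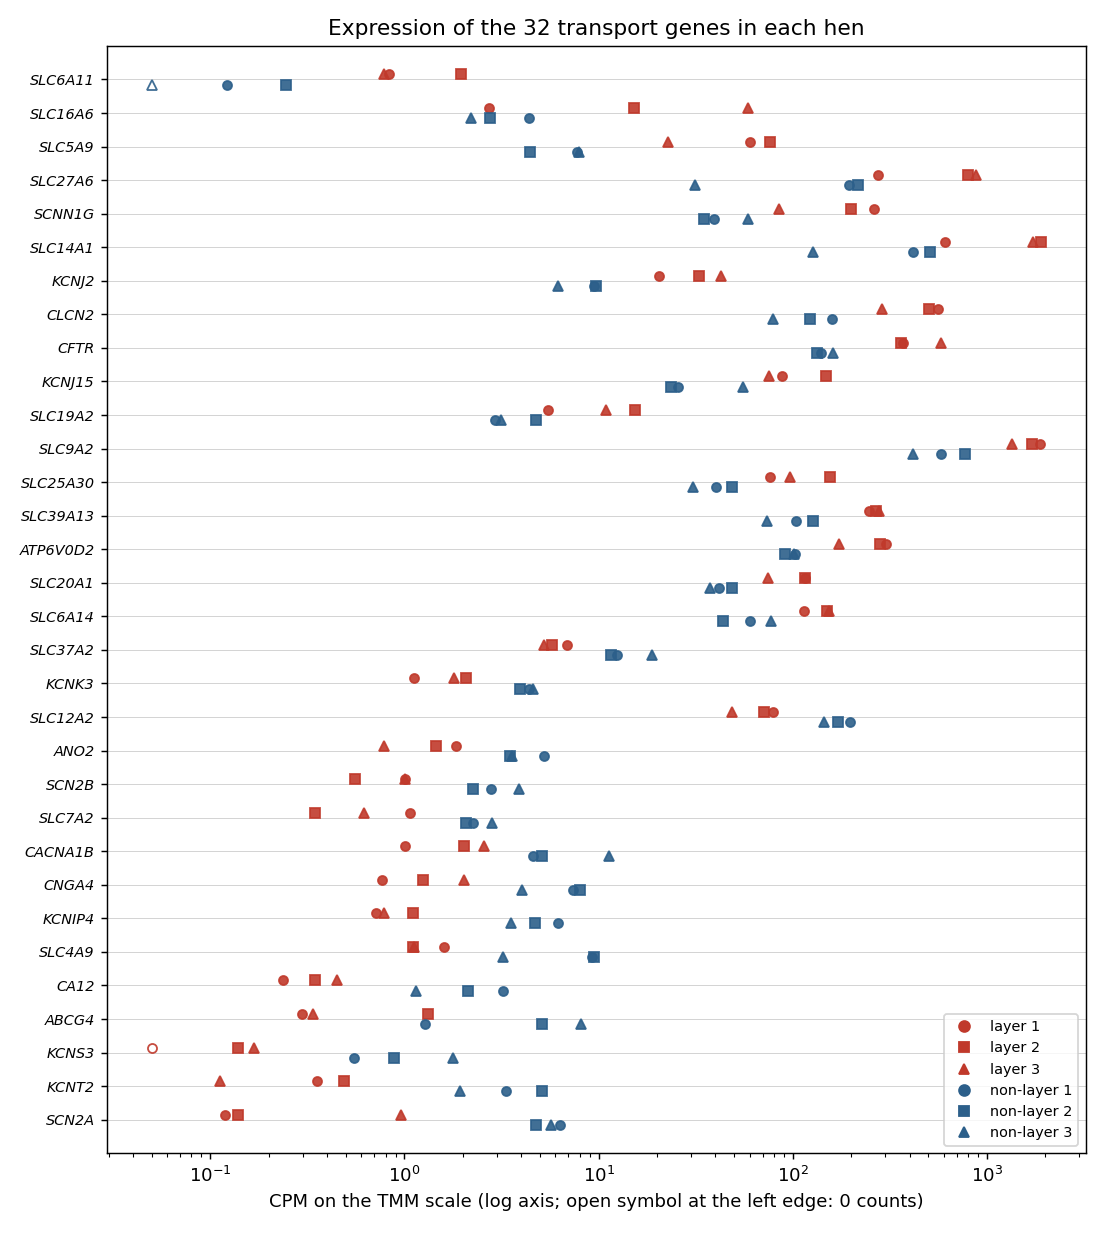
CPM of each of the 32 transport genes in the 3 layers and 3 non-layers on a log axis, 1 point per hen. The groups are separate for all genes except SLC16A6, where layer 1 (2.73) lies among the non-layers, and ABCG4, where layer 2 (1.32) lies above non-layer 1 (1.28).

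Among the 4 sodium genes, the 2 epithelial ones were higher in layers and the 2 voltage-gated ones were lower. SLC9A2 (ENSGALG00000016791, chromosome 1, 134070940 to 134102538, plus strand, Galgal 5.0) encodes a sodium-proton exchanger of the epithelial cell membrane. Its level was 1875, 1710.5 and 1344 CPM in the layers and 578, 773 and 415 CPM in the non-layers. Each layer was above every non-layer, and SLC9A2 rose by a log2 fold change of 1.48 (SE 0.27, edgeR adjusted p = 0.047). SCNN1G (ENSGALG00000006270, chromosome 14, 7019086 to 7028500, minus strand) encodes the gamma subunit of the epithelial sodium channel, through which sodium enters absorbing epithelia. Its level was 262, 199.8 and 84.9 CPM in the layers and 39.3, 35.0 and 58.7 CPM in the non-layers. The groups did not overlap, although layer 3 stood only 1.45 times above non-layer 3. The difference of 2.04 (SE 0.42) missed the threshold, with an edgeR adjusted p of 0.055.

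SCN2A (ENSGALG00000011009, chromosome 7, 19912741 to 19968241, minus strand) encodes a pore-forming subunit of the voltage-gated sodium channels that carry nerve impulses. It was at 0.119, 0.139 and 0.955 CPM in the layers and at 6.34, 4.78 and 5.68 CPM in the non-layers, from 2, 2 and 17 counts against 104, 97 and 109. Layer 3 held most of the layers' counts and was still under every non-layer. The pooled counts gave a level 13.0 times higher in non-layers, with an exact 95% interval for counting error of 8.33 to 21.2. The log2 fold change of SCN2A was −3.73 (SE 0.72, edgeR adjusted p = 0.051), −5.37 without layer 3 and −3.30 without layer 1. SCN2B, which encodes a beta subunit of the same channels, was at 0.858 ± 0.262 CPM across layers, against 2.99 ± 0.838 CPM across non-layers (SD, n = 3). Its difference of −1.79 (SE 0.41) was not called either (edgeR adjusted p = 0.072).

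The 6 potassium channel genes also lay in both directions, with both inward rectifiers higher in layers and the other 4 lower. KCNJ2 (ENSGALG00000004376, chromosome 18, 8259055 to 8265799, plus strand) encodes an inward rectifier, a channel that passes potassium into the cell more readily than out and holds the resting potential. KCNJ2 was at 20.5, 32.8 and 42.8 CPM in the layers and 9.51, 9.71 and 6.20 CPM in the non-layers. The lowest layer was above the highest non-layer by more than the whole range of the non-layers. The rise was 1.92 on the log2 scale (SE 0.33, edgeR adjusted p = 0.037). KCNJ15 (ENSGALG00000016055, chromosome 1, 107539724 to 107541289, plus strand) encodes another inward rectifier and was the most abundant of the 6. Its level was 87.9, 149 and 75.5 CPM in the layers and 25.6, 23.5 and 55.2 CPM in the non-layers. Non-layer 3 stood apart from the other non-layers, and KCNJ15 was not called (log2 difference 1.58, SE 0.40, edgeR adjusted p = 0.093).

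Of the 4 lower potassium genes, KCNT2 and KCNIP4 fell and KCNK3 and KCNS3 did not pass the test. KCNT2 (ENSGALG00000041680, chromosome 8, 2727674 to 2811111, plus strand) encodes a potassium channel opened by intracellular sodium. It was at 0.356, 0.487 and 0.112 CPM in the layers and 3.35, 5.13 and 1.93 CPM in the non-layers, from 6, 7 and 2 counts against 55, 104 and 37. The lowest non-layer was 3.96 times above the highest layer. The log2 fold change of KCNT2 was −3.45 (SE 0.62, edgeR adjusted p = 0.042), and its pooled counts gave a level 11.5 times higher in non-layers, with an exact 95% counting interval of 6.79 to 20.9. KCNIP4 (ENSGALG00000034621, chromosome 4, 75273238 to 75452467, plus strand) encodes a calcium-binding partner of A-type potassium channels. It was at 0.711, 1.11 and 0.787 CPM in the layers and 6.16, 4.73 and 3.55 CPM in the non-layers. The fall of −2.46 (SE 0.38, edgeR adjusted p = 0.034) left a ratio of 3.19 between the nearest hens of the groups.

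KCNK3, which the deposited description calls member 9 and not member 3 of the leak potassium channels, was at 1.67 ± 0.492 CPM across layers, against 4.31 ± 0.331 CPM across non-layers (SD, n = 3). Its log2 difference was −1.37 (SE 0.34, edgeR adjusted p = 0.090). KCNS3 encodes a subunit that forms no channel alone and modifies the channels of other subunits. It was read 0, 2 and 3 times in the layers and 9, 18 and 34 times in the non-layers. The layers were thus at or under the limit of 3 counts that a library at 0 allows, and the pooled level was 10.7 times higher in non-layers, with an exact 95% counting interval of 4.35 to 34.2. KCNS3 was not called (log2 difference −3.31, SE 0.84, edgeR adjusted p = 0.094). Its difference was −3.90 without layer 3, and −2.74 without layer 1 or without non-layer 3.

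The chloride genes included 3 of the 11 called genes, and they moved in both directions. CFTR (ENSGALG00000032986, chromosome 1, 24554513 to 24638605, minus strand) encodes a chloride and bicarbonate channel of epithelia that is opened by cyclic AMP signalling. CFTR was at 371, 360.2 and 577 CPM in the layers and 140.0, 134 and 161 CPM in the non-layers. The non-layers were nearly alike, and the lowest layer was 2.23 times above the highest of them. CFTR rose by 1.59 (SE 0.23), with an edgeR adjusted p of 0.033, the lowest of the 32 genes. CLCN2 (ENSGALG00000025804, chromosome 9, 15969989 to 15979634, minus strand) encodes a voltage-gated chloride channel. Its level was 563, 502 and 287 CPM in the layers and 160.0, 122 and 78.9 CPM in the non-layers. Layer 3 was the lowest layer and still 1.79 times above non-layer 1, and the rise was 1.90 on the log2 scale (SE 0.34, edgeR adjusted p = 0.045).

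SLC12A2 (ENSGALG00000014690, chromosome Z, 56691802 to 56743665, plus strand) encodes the sodium-potassium-chloride cotransporter that loads chloride into secreting epithelial cells across the side facing the blood. It was at 78.8, 71.0 and 48.7 CPM in the layers and 198, 171 and 144 CPM in the non-layers. Every layer was below every non-layer, so SLC12A2 fell in layers while the channels CFTR and CLCN2 rose. The log2 fold change was −1.37 (SE 0.22, edgeR adjusted p = 0.035), and SLC12A2 was the only lower gene with a level above 20 CPM in layers. ANO2 (ENSGALG00000017271, chromosome 1, 74112613 to 74296685, minus strand) encodes a calcium-activated chloride channel known from sensory cells. It was at 1.84, 1.46 and 0.787 CPM in the layers and 5.25, 3.50 and 3.60 CPM in the non-layers. The groups were separate, but ANO2 was not called (log2 difference −1.59, SE 0.41, edgeR adjusted p = 0.096).

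Of the 3 proton and bicarbonate genes, the proton pump subunit was higher in layers and the anion exchanger and the carbonic anhydrase were lower. ATP6V0D2 (ENSGALG00000034294, chromosome 2, 123562671 to 123580456, plus strand) encodes a subunit of the membrane sector of the vacuolar proton pump, an isoform known in mammals from bone-resorbing osteoclasts and kidney. It was at 302, 282 and 173 CPM in the layers and 103, 91.0 and 102 CPM in the non-layers. The lowest layer stood 1.68 times above the highest non-layer, and ATP6V0D2 rose by 1.35 (SE 0.23, edgeR adjusted p = 0.037). CA12 (ENSGALG00000003456, chromosome 10, 4027277 to 4045255, plus strand) encodes a carbonic anhydrase held in the cell membrane with its active site outside the cell. CA12 was at 0.237, 0.348 and 0.450 CPM in the layers and 3.23, 2.12 and 1.15 CPM in the non-layers, from 4, 5 and 8 counts against 53, 43 and 22. Its pooled level was 6.09 times higher in non-layers, with an exact 95% counting interval of 3.65 to 10.8. The groups were separate, and the log2 difference of −2.62 (SE 0.53) was just outside the threshold (edgeR adjusted p = 0.055).

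SLC4A9 (ENSGALG00000044387, chromosome 13, 1526801 to 1543148, plus strand) belongs to the bicarbonate transporter family. It was at 1.60, 1.11 and 1.12 CPM in the layers and 9.21, 9.51 and 3.23 CPM in the non-layers. Non-layer 3 was well below the other non-layers and above every layer, and the difference of −2.51 (SE 0.48) was the nearest of the uncalled genes to the threshold together with SCN2A (edgeR adjusted p = 0.051).

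The only calcium channel gene and the only cyclic nucleotide-gated channel gene were both lower in layers and neither was called. CACNA1B (ENSGALG00000008456, chromosome 17, 2601746 to 2859437, plus strand) encodes the pore of the N-type calcium channel, which opens at nerve endings and triggers transmitter release. It was at 1.01, 2.02 and 2.59 CPM in the layers and 4.57, 5.13 and 11.3 CPM in the non-layers. Non-layer 3 was well above the other non-layers, and the log2 difference was −1.90 (SE 0.51, edgeR adjusted p = 0.10). CNGA4 (ENSGALG00000022704, chromosome 1, 194460896 to 194463263, minus strand) encodes a modulatory subunit of channels opened by cyclic nucleotides in olfactory neurons of mammals. It was at 0.771, 1.25 and 2.02 CPM in the layers and 7.38, 7.98 and 4.01 CPM in the non-layers. Here non-layer 3 was the lowest non-layer, and the log2 difference was −2.25 (SE 0.46, edgeR adjusted p = 0.055).

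The phosphate and zinc carriers both rose. SLC20A1 (ENSGALG00000013740, chromosome 22, 4596586 to 4604739, plus strand) encodes a carrier that brings phosphate into the cell with sodium. It was at 115, 116 and 74.5 CPM in the layers and 41.5, 48.7 and 37.5 CPM in the non-layers. SLC20A1 rose by 1.26 (SE 0.21, edgeR adjusted p = 0.037) with no overlap between groups. SLC39A13 (ENSGALG00000008122, chromosome 5, 22898627 to 22916960, minus strand) encodes a zinc transporter of the secretory pathway. Its level was 247, 269.7 and 279 CPM in the layers and 104, 127 and 73.8 CPM in the non-layers. Among the higher genes the layers were most alike for SLC39A13, at 265 ± 16.1 CPM (SD, n = 3), and it rose by 1.39 (SE 0.22, edgeR adjusted p = 0.034).

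One sugar carrier rose and the other was lower without being called. SLC5A9 (ENSGALG00000010494, chromosome 8, 22688088 to 22709070, plus strand) encodes a sodium-coupled carrier of mannose, fructose and glucose. It was at 60.4, 76.5 and 22.9 CPM in the layers and 7.75, 4.44 and 7.93 CPM in the non-layers. Layer 3 was well under the other layers and still 2.89 times above the highest non-layer. SLC5A9 had the largest rise of the called genes, 2.99 on the log2 scale (SE 0.48, edgeR adjusted p = 0.034). SLC37A2 (ENSGALG00000035842, chromosome 24, 213692 to 220807, minus strand) encodes an exchanger of glucose-6-phosphate for phosphate. Its level was 6.88, 5.77 and 5.23 CPM in the layers and 12.5, 11.5 and 18.8 CPM in the non-layers. The groups were separate, with a log2 difference of −1.26 (SE 0.28, edgeR adjusted p = 0.063), the smallest among the lower genes.

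None of the 3 amino acid and neurotransmitter carriers was called, although their groups did not overlap. SLC6A14 (ENSGALG00000005957, chromosome 4, 3062274 to 3075508, plus strand) encodes a carrier of neutral and cationic amino acids and was the abundant one. It was at 114, 149.7 and 154 CPM in the layers and 60.4, 43.7 and 77.1 CPM in the non-layers. The log2 difference of 1.21 (SE 0.24) was the smallest of the higher genes (edgeR adjusted p = 0.053). SLC6A11 (ENSGALG00000004879, chromosome 12, 4050552 to 4133425, plus strand) encodes a carrier of the transmitter GABA. It was read 14, 28 and 14 times in the layers and 2, 5 and 0 times in the non-layers. Its pooled level was 9.11 times higher in layers, with an exact 95% counting interval of 4.14 to 23.7, and its fitted log2 difference of 3.17 (SE 0.85) had an edgeR adjusted p of 0.10. The difference of SLC6A11 was 4.20 without non-layer 2 and 2.60 without non-layer 3. SLC7A2 (ENSGALG00000013627, chromosome 4, 63439358 to 63479725, minus strand) encodes a carrier of arginine and other cationic amino acids. It was at 1.07, 0.348 and 0.618 CPM in the layers and 2.26, 2.07 and 2.82 CPM in the non-layers, a log2 difference of −1.79 (SE 0.47, edgeR adjusted p = 0.097).

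The remaining 6 genes carry urea, carboxylates, vitamins, lipids and mitochondrial solutes. In layers 5 of them were higher, 1 was lower and none was called, and 2 of them were the genes whose groups overlapped. SLC14A1 (ENSGALG00000032749, chromosome Z, 2251661 to 2265467, minus strand) encodes a urea transporter, which the deposited description numbers as member 2 of its family. It was at 609, 1902 and 1734 CPM in the layers and 415, 509.6 and 127 CPM in the non-layers. Layer 1 was only 1.20 times above non-layer 2 while the other layers were far above it, and the log2 difference was 2.01 (SE 0.60, edgeR adjusted p = 0.12). SLC27A6 (ENSGALG00000000184, chromosome Z, 45636819 to 45675681, minus strand), a member of the fatty acid transport protein family, likewise had its lowest layer in layer 1 and its lowest non-layer in non-layer 3. It was at 274, 803 and 883 CPM in the layers and 194, 218 and 31.5 CPM in the non-layers, a log2 difference of 2.14 (SE 0.73, edgeR adjusted p = 0.16).

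SLC16A6 (ENSGALG00000004162, chromosome 18, 7872473 to 7878562, minus strand) belongs to the monocarboxylate transporter family. It was at 2.73, 15.2 and 58.8 CPM in the layers and 4.39, 2.76 and 2.19 CPM in the non-layers. Layer 1 was within the range of the non-layers and layer 3 was far above all other hens. The log2 difference was 3.04 (SE 0.98, edgeR adjusted p = 0.14), and 1.53 without layer 3. ABCG4 (ENSGALG00000006795, chromosome 24, 4272958 to 4278960, minus strand) belongs to a family of sterol exporters. It was at 0.296, 1.32 and 0.337 CPM in the layers and 1.28, 5.13 and 8.08 CPM in the non-layers. The overlap was between layer 2 and non-layer 1, and the log2 difference of −2.91 (SE 0.83, edgeR adjusted p = 0.12) became −3.91 without layer 2 and −2.32 without non-layer 3.

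The thiamine carrier SLC19A2 was at 10.6 ± 4.93 CPM across layers, against 3.61 ± 1.02 CPM across non-layers (SD, n = 3), a log2 difference of 1.55 (SE 0.42, edgeR adjusted p = 0.11). The mitochondrial carrier SLC25A30 was at 109 ± 41.1 CPM across layers, against 39.9 ± 9.12 CPM across non-layers (SD, n = 3). Its log2 difference of 1.45 (SE 0.30) missed the threshold narrowly (edgeR adjusted p = 0.055).

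**Figure D2:**
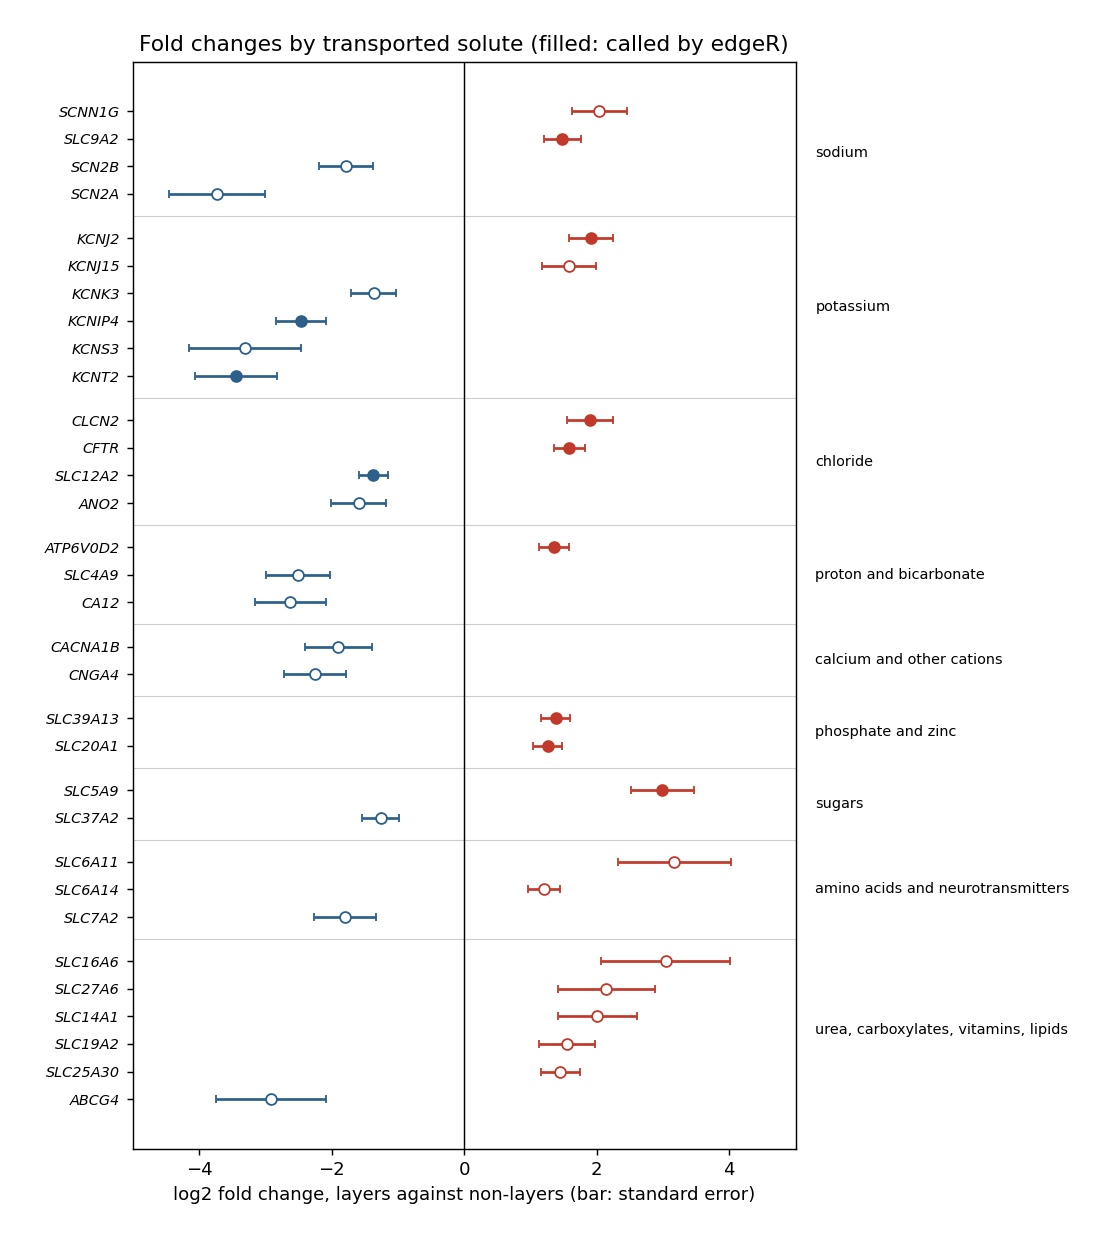
Log2 fold change of layers over non-layers for the 32 transport genes, grouped by transported ion or solute, with bars for the standard error and filled points for genes that edgeR called. Sodium, potassium, chloride and proton genes lie on both sides of 0, both phosphate and zinc carriers lie above it (1.26 and 1.39), and the widest bars belong to SLC16A6 (SE 0.98), SLC6A11 (SE 0.85) and KCNS3 (SE 0.84).

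Levels between genes were compared per length, in the deposited RPKM (reads per kilobase of exon, scaled to library size). In layers SLC14A1 was at 889 ± 419 RPKM, SLC9A2 at 320.3 ± 62.7 RPKM and SLC27A6 at 302 ± 146 RPKM (SD, n = 3). SLC14A1 was above the other 2 on average, whereas SLC9A2 and SLC27A6 differed by much less than the spread of either. CLCN2 at 149 ± 51.7 RPKM and ATP6V0D2 at 134 ± 39.7 RPKM came next and were not separable by their spread. SLC39A13, SCNN1G, CFTR and KCNJ15 followed at 88.1, 79.8, 78.6 and 76.0 RPKM. These means differed by less than the SDs of SCNN1G, CFTR and KCNJ15 (21.7 to 41.7 RPKM). SLC39A13 stood above the others by more than its own SD of 2.74 RPKM. In non-layers the same 3 genes led, with SLC14A1 at 278 ± 152 RPKM, SLC9A2 at 144 ± 38.5 RPKM and SLC27A6 at 85.9 ± 57.8 RPKM. SLC12A2 was among the next in non-layers, at 55.5 ± 7.43 RPKM, and at 17.1 ± 4.51 RPKM in layers. For SCNN1G, CLCN2 and SLC37A2 the RPKM implied a shorter gene length than the summed exons, among genes with at least 50 counts in layer 2. Of the genes with fewer counts, KCNIP4, ANO2 and SLC7A2 also had higher RPKM than their counts and summed exons give. In non-layer 1, KCNIP4 had 8.73 RPKM from 101 counts and 1458 exon bases, and KCNK3 had 4.17 RPKM from 72 counts and 1170 bases. None of the comparisons of RPKM here corrects this.

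Most of the higher genes were abundant and most of the lower genes were scarce. In layers 15 of the 17 higher genes were at 10 RPKM or more, while 11 of the 15 lower genes were under 1 RPKM and 14 under 5 RPKM. In non-layers 11 of the 15 lower genes were still under 5 RPKM. The median of the higher genes was 76.0 RPKM in layers and 32.7 RPKM in non-layers, against 27.0 and 8.87 RPKM for the other 257 higher genes of the deposited table. Medians for the lower genes were 0.392 RPKM in layers and 2.85 RPKM in non-layers, against 1.10 and 6.92 RPKM for the other 323 lower genes. SLC9A2, SLC14A1 and SLC27A6 together held 54.3 to 66.4% of the 32 genes' counts in layers and 38.6 to 61.6% in non-layers.

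**Figure D3:**
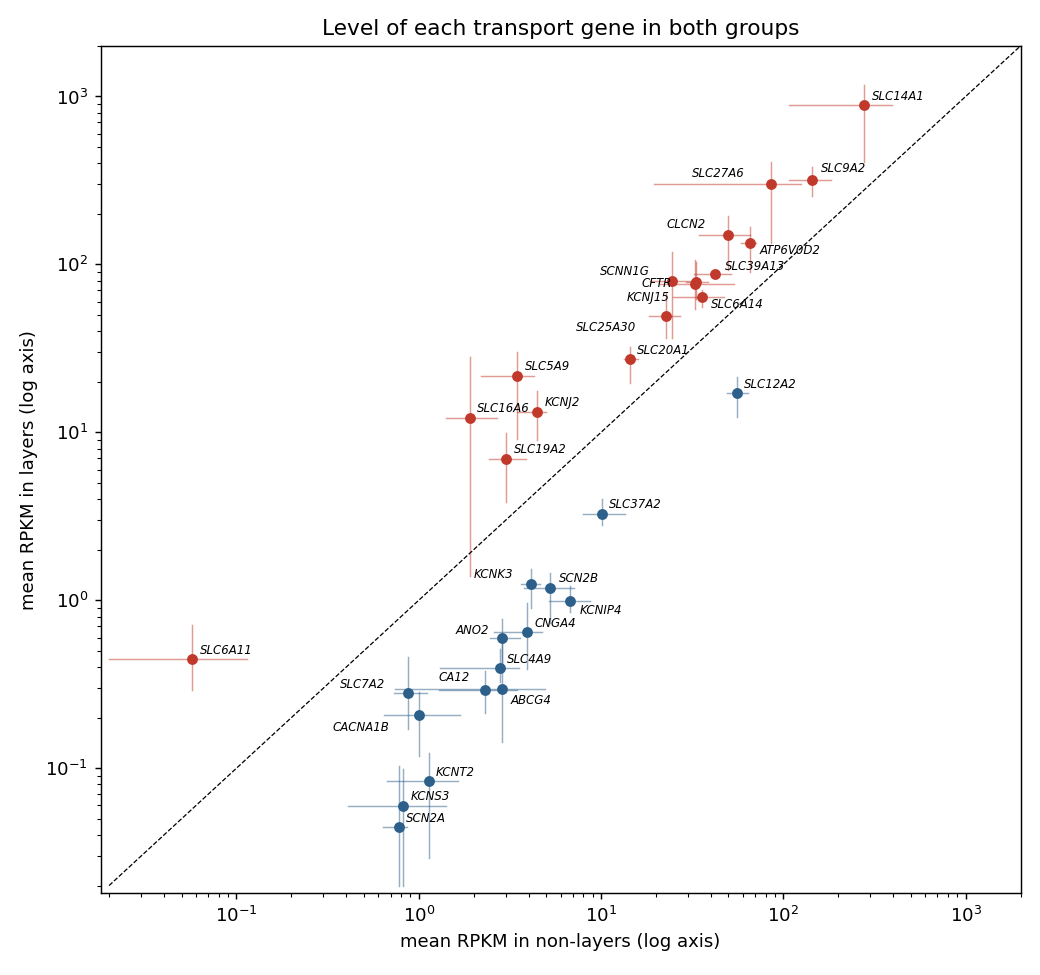
Mean RPKM of each transport gene in layers (vertical log axis) against non-layers (horizontal log axis), with lines from the lowest to the highest of the 3 hens, values of 0 drawn at the edge and equality dashed. Genes higher in layers lie mostly above 10 RPKM in layers, led by SLC14A1 (889), and genes lower in layers lie mostly under 1 RPKM, apart from SLC12A2 (17.1), SLC37A2 (3.28), KCNK3 (1.26) and SCN2B (1.18).

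The hens of a group did not rank alike across the transport genes. Of the 17 higher genes, 8 had their lowest layer value in layer 1, among them SLC14A1, SLC27A6, SLC16A6 and KCNJ2. Another 8 had it in layer 3, among them SLC9A2, CLCN2, SCNN1G, SLC5A9 and ATP6V0D2, and only CFTR had it in layer 2. The other 257 higher genes of the deposited table had their lowest layer in layer 1, 2 and 3 for 107, 45 and 105 genes. Layer 3 also carried the highest level of the globin gene HBBA, a red blood cell marker, at 386 CPM against 82.2 and 58.3 CPM in the other layers and 44.1 to 54.3 CPM in the non-layers. Its part in the values of SLC16A6 and the other genes that were extreme in layer 3 was not tested.

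Non-layer 3 lay at opposite ends of its group for different lower transport genes. It had the lowest value of the non-layers in 231 of the other 323 lower genes of the deposited table, and in 6 of the 15 lower transport genes (SLC12A2, CNGA4, KCNIP4, SLC4A9, CA12 and KCNT2). For 7 of the 15 it was the highest (SLC37A2, KCNK3, SCN2B, SLC7A2, CACNA1B, ABCG4 and KCNS3), against 71 of the other 323. These are counts over genes of the same 6 libraries, with no test of the difference. Markers of dividing cells were also lowest among the non-layers in non-layer 3. Of a list of 15 such markers, 12 were named in the deposited table, all 12 were lower in layers and 8 were called. Of all genes tested, 0.969% were called as lower in layers. The markers could be named only because the authors called them on these hens, so neither count is independent evidence. The summed level of the 12 named markers was 83.5, 88.1 and 74.0 CPM in the layers and 736, 800.0 and 214 CPM in the non-layers. None of these 12 was at 0 in any library. The part of dividing cells in the transport genes that were lower in layers was not tested. Without non-layer 3, edgeR called 9 of the 32 genes and 274 of all 13499 genes tested. Without layer 3 it called 8 of the 32 and 273 of all 13530 tested. It called none of the 32 when any other single hen was left out.

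**Figure D4:**
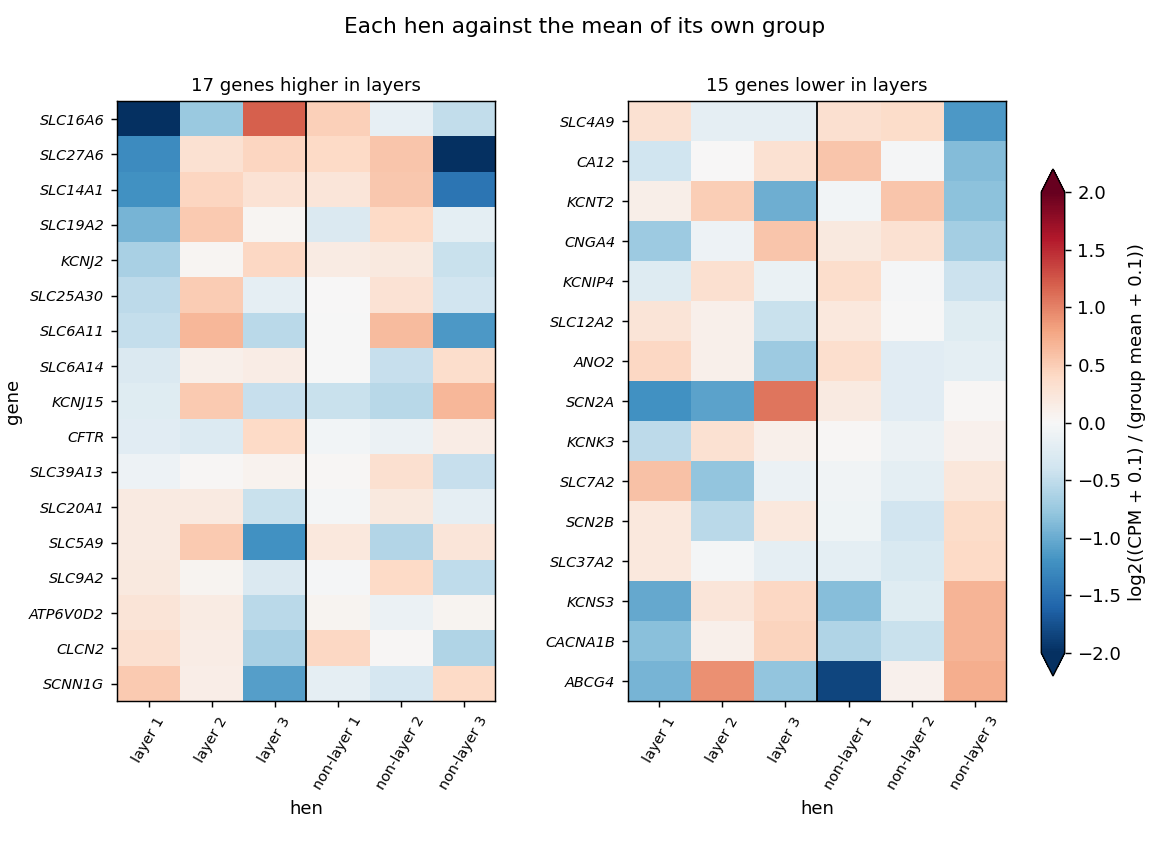
Level of each hen against the mean of its own group for the 32 transport genes, as the log2 ratio of CPM + 0.1 to group mean + 0.1, with colours that saturate at 2 in either direction. Layer 1 is low for SLC14A1, SLC27A6 and SLC16A6, layer 3 is low for SLC5A9 and SCNN1G, and non-layer 3 is low for SLC27A6 and SLC14A1 but high for ABCG4, CACNA1B and KCNS3.

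Relative spread within a group was similar for higher and lower transport genes. The median coefficient of variation over 3 hens was 37.6% in layers and 28.4% in non-layers for the higher genes, and 39.1% and 28.0% for the lower genes. The other lower genes of the deposited table varied more in non-layers (43.4%) than in layers (28.9%), the reverse of the order in the lower transport genes. The lower transport genes were the scarcer set in layers, with a median of 0.392 RPKM against 1.10 RPKM. Low counts raise the coefficient of variation by counting error, and its part in this difference was not tested.

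The transport genes were spread over the genome. Chromosome 1 held 7 of them, chromosomes 4, 24 and Z held 3 each, and for none of the 32 was the nearest gene of the deposited table another transport gene. CLCN2 lay 71 bases from CHRD on the same strand, and both were higher in layers (log2 fold changes 1.90 and 2.25). CNGA4 lay 1402 bases from CCKBR on the same strand, and both were lower (−2.25 and −4.57). How reads near these boundaries were assigned is not given in the sources used here. SLC6A11 lay 48957 bases from the calcium pump gene ATP2B2 on the same strand, at 1.19 CPM in layers against 824 CPM for ATP2B2.

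Other genes of ion supply to the shell (pumps, exchangers, channels and their regulators) were looked up beside the transport genes, from a list of 45 genes. The list was written with earlier results of these data known, which favours a shared direction. Most of that list was not named in the deposited table. Those of the list that the deposited table named and that are described here were all higher in layers, a direction that, like that of the transport genes, rests on genes already called on these hens. edgeR called ATP2B2, FXYD2, SGK1, OTOP2, PRKG2 and AVPR1A, and did not call ATP2A3, ATP2C2, ATP1B1, NKAIN4, OTOP3 and CLDN10. Of all genes tested, 0.901% were called as higher in layers, and nothing is read from the difference. ATP1B1, the beta subunit of the sodium pump, lay 111006 bases from SLC19A2 and had the higher difference of the pair (1.97 against 1.55).

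Since SCN2A, SCN2B, CACNA1B and KCNIP4, all lower in layers, and the GABA carrier SLC6A11, higher in layers, are best known from nervous tissue, markers of other cell types were looked up in the same table. Of 15 nerve cell markers it named 1, the ubiquitin hydrolase gene UCHL1, which was at 27.4, 36.8 and 73.9 CPM in the layers and 20.9, 18.3 and 14.0 CPM in the non-layers. UCHL1 was higher in layers without being called (edgeR adjusted p = 0.11). Of 15 immune cell markers the table named 1, the T cell receptor component CD3D, which was at 6.82, 8.62 and 5.23 CPM in the layers and 14.8, 13.3 and 30.2 CPM in the non-layers. CD3D was lower in layers, was highest in non-layer 3 and was not called (edgeR adjusted p = 0.093). It named none of 10 smooth muscle markers and 2 of 14 ciliated cell markers, TEKT1 and CCNO. Both ciliated cell markers were lower in layers and neither was called, with a summed level of 33.6 to 74.3 CPM across layers, against 119 to 162 CPM across non-layers. Of 12 red blood cell markers only HBBA was named, and of 10 epithelial markers only CLDN10, at 534, 1084 and 617 CPM in the layers and 292, 291 and 339.8 CPM in the non-layers. A marker missing from the table was not called by the authors or has no name there, so its level was not analysed here. The uterine identity of the samples was not checked further. The part of nerve, immune, ciliated or muscle cells in the transport genes was not tested.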

How the data were processed

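Poly-A RNA of 6 uteri was made into stranded libraries with the TruSeq Stranded mRNA kit, 1 library per hen, and read single-end on an Illumina NextSeq instrument. The authors cleaned the reads (Prinseq), used Array Studio version 10 to map them on Galgal 5.0, and called DEGs with its DESeq2. Genes carry Ensembl identifiers, and the Ensembl release, the counter and its strand setting are not given in the sources used here. The deposited count table holds estimated counts per gene, 91.62% of them whole within 1e-06, which were rounded. The deposited RPKM values used the total gene count of a library, and for 15 of 18 transport genes with at least 50 counts in layer 2 the summed exon length (within 1%). The third deposited table holds the authors' own comparison, with a signed fold change (score), a p-value and a q-value, and group means (signal). None of those was used, and only its annotation columns (symbols, descriptions, coordinates and summed exon length) were read, after trailing spaces were removed from 58 symbols. The table also marks 6 of the 32 transport genes (SLC5A9, KCNIP4, SLC4A9, SLC16A6, ANO2 and SLC7A2) as confounded, a term the sources used here do not explain, and the mark was not used. No other per-sample columns were present.

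Counts were tested with edgeR 4.0.16 (TMM, filterByExpr, quasi-likelihood F-test, layers against non-layers, no covariate) in R 4.3.3, with DESeq2 1.42.0 and limma 3.58.1 as alternatives and Python 3.11.15 for summaries. The fit was also run on simulated counts with the same dispersion for every gene, and nothing is read here from that run. Every transport gene was named, and values per hen were given for the genes with the highest and lowest log2 fold change and the highest RPKM in each solute group and for most others. The genes and lists were chosen with earlier results of these data known. Part of the list of ion supply genes, with its summed level, is not reported here. Counting intervals are exact 95% intervals and cover counting error only. Replicate libraries of a group differed beyond sampling noise (chi-square per gene 14.0 to 163). Alternatives changed the scaling, the tool, the low-value filter, the pseudocount, the threshold, the block and the set of hens.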

Additional observations from a re-analysis of the deposited data

How the results depend on the processing

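No transport gene changed direction under any alternative run: of 490 fold changes recomputed, 347 kept their side of the threshold, 64 passed it only in the alternative, 79 lost it and 0 reversed. The choice of the genes by this contrast favours the lack of reversals. Leaving out a hen could also hardly reverse a gene whose groups were separate, as for 30 of the 32, so nothing is read from it. The calls moved more. edgeR called 249 of all genes and 11 of the 32 transport genes (8 higher, 3 lower). Scaling by library size only called 781 of all genes (103 higher, 678 lower; the median of all genes moved to −0.33) and 22 transport genes (8 higher, 14 lower). DESeq2's Wald test called 935 of all genes, 6.73% of those given an adjusted p (445 higher, 490 lower), and all 32 transport genes (17 higher, 15 lower), the tool on which the table was chosen. limma on log2(RPKM + 1) called 626 (87 higher, 539 lower) and 15 of 25 tested transport genes (6 higher, 9 lower). With a pseudocount of 0.1 it called 664 (77 higher, 587 lower) and 13 (4 higher, 9 lower), and without a filter 434 (56 higher, 378 lower) and 11 (3 higher, 8 lower). With at least 1 count in any library, edgeR called 295 of 16831 genes and 15 transport genes. With at least 10 in every library, it called 214 of 12321 genes and 11 of 24 transport genes. The causes were not tested.

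Leaving out 1 hen left 0 to 274 of all genes and 0 to 9 transport genes called. No transport gene was called without layer 1, layer 2, non-layer 1 or non-layer 2. In those runs 31 or 32 of them had an unadjusted edgeR p under 0.05, as did 1704 to 2715 of all genes. The choice of the transport genes by this contrast favours that, and it is no evidence that their differences persist. When non-layer 1 was left out, edgeR called 0 of all genes, with 1704 at an unadjusted p under 0.05. The number of transport genes whose groups did not overlap was 30 under each scaling and in RPKM. With 1 hen left out it was 30 or 31, but leaving out a hen cannot make separate groups overlap, so this number could not fall. The share over all genes was not computed for these settings, and nothing is read from these numbers.

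Neither the labels nor the methods pair hens by replicate number. Deviations of same-numbered hens from their group means correlated at −0.147, 0.11 and −0.066, and layer 1 correlated best with non-layer 3 (0.191). With 3 hens per group these correlations depend on one another, so they cannot show that no pairing exists. With the replicate block, edgeR called 21 of all genes and 0 transport genes. An unadjusted edgeR p under 0.05 was found for 2224 of all genes and 31 transport genes, and the choice of the transport genes by this contrast favours the latter.

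With 3 hens per group and adjusted p-values of the called genes between 0.033 and 0.047, which transport genes pass depends on the setting. For SLC6A11, CA12, KCNS3, KCNT2 and SCN2A the low counts limit the precision of the fold change.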
